A study of Mus musculus with 6 samples.

Results

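The genes of synaptic vesicles and of the machinery that releases them were examined in sorted cells of the embryonic mouse ventral midbrain. The 39 members are all genes with exactly the symbols of a list of vesicle membrane proteins, synapsins, synaptotagmins, SNARE proteins, active zone proteins and granins. The list sets no threshold on a measured value, but it was drawn up with results of these data known. All 39 were on the array, on 91 of its 45101 probe sets (a probe set is a group of short probes for 1 transcript), of 18201 genes that the platform annotation names by a single symbol. In 37 members at least 1 probe set was bright enough to be tested, which was the case when its signal exceeded the 40th percentile of the array on at least 3 arrays. Sv2c and Syt6 were not.

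Messenger RNA was measured on 6 arrays, 3 per group, from mesencephalon dissected ventrally at embryonic day 12.5. The positive group held GFP-positive cells of Ngn2-GFP mice on a CD1/129 background, in which GFP reports the proneural factor Neurog2, and is described in the design text as containing nearly all dopaminergic progenitors of the region. The negative group held GFP-negative cells of Lmx1a-GFP mice on a C57BL/6 background, in which GFP reports a transcription factor of dopaminergic progenitors, and served as the non-dopaminergic reference. Per the design text the replicates were biological, and each sample was hybridized to its own array. Reporter line, strain and sort gate all coincided with the group on every array, so their effects cannot be told apart. GFP is a stable protein, so the positive gate can keep cells after Neurog2 itself is switched off.

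A synaptic vesicle carries transmitter to the presynaptic membrane, where SNARE proteins pull the vesicle and cell membranes together and synaptotagmins couple that fusion to calcium. Active zone scaffolds such as Bassoon and Piccolo, and priming factors such as Munc13 and RIM, hold vesicles at the release site, while granins fill the dense-core vesicles that store peptides and amines. Young neurons transcribe many of these genes while their axons still grow, before they form synapses. Sv2b encodes 1 of the SV2 family of vesicle membrane proteins, whose close relatives are Sv2a and Sv2c.

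Promoter sequences from RefSeq (build GRCm38.p6), from 250 bases before to 50 after a gene's start, were given for 30 of the 39 members in 40 windows. None was held for Rims2, Snap25, Syn3, Syngr3, Syt13, Syt4, Syt5, Syt7 and Vamp2. The stretches below show Sv2b, the member that passed the test between groups, beside members whose windows hold letters known from neuronal promoters. Capitals mark the left part (TTCAGCACC) or the right part of the RE1 element, to which the neuronal repressor REST binds, and the cAMP response element (TGACGTCA), each searched on both strands.
Sv2b, chr7:75309263-75309512, minus strand: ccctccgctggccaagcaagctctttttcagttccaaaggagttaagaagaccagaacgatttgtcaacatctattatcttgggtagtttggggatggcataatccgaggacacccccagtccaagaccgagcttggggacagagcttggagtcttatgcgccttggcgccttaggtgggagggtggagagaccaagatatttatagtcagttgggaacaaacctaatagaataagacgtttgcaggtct
Scg2, chr1:79440017-79440276, minus strand: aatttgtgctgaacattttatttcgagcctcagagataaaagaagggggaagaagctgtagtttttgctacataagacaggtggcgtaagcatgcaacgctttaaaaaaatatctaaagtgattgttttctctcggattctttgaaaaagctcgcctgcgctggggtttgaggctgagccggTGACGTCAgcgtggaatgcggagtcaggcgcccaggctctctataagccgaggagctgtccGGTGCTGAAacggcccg
Chgb, chr2:132781392-132781641, plus strand: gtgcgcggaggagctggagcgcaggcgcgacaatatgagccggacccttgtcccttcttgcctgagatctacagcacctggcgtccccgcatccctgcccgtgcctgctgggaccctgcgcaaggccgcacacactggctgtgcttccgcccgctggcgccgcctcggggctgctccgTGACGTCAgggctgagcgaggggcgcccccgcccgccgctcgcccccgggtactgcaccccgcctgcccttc
Syn1, chrX:20920919-20921168, minus strand: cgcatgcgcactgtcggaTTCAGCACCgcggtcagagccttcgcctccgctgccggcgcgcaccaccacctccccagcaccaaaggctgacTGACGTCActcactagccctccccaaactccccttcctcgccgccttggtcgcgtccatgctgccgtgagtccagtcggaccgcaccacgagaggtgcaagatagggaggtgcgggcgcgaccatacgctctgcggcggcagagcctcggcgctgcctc
Unc13a, chr8:71671727-71671756, minus strand: tcaGGCGCTGTCCgcgcccccGGTGCTGAA
The Sv2b stretch is the most upstream of 4 annotated windows of that gene, and no Sv2b window held any motif searched. The Unc13a stretch is limited to the 30 bases around both parts of RE1, just after the start. The left part of RE1 was in the windows of Scg2, Syn1 and Unc13a, 7.5% of the members' windows against 0.371% of all 32851 windows. The right part was in that of Unc13a alone, 2.5% against 0.521%. The cAMP response element was in the windows of Scg2, Chgb and Syn1, 7.5% against 1.79%, and lay 68 and 72 bases before the start in Scg2 and Chgb. Of E-boxes, which proneural factors bind, CAGATG was in 7.5% of the members' windows against 17.2% of all and CAGCTG in 32.5% against 16.3%. The Nurr1 site AAAGGTCA was in none, against 1.51% of all. Members' windows had a median GC content of 62.2% and a median of 18 CpG pairs, against 52.7% and 7 over all windows, and matches were not adjusted for that. These are matches of letters in a short window and show no binding.

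The labels were checked on the genes behind the reporters. Neurog2 gave a signal of 706, 585 and 500.4 on the positive arrays and 338, 388 and 334 on the negative arrays, a log2 difference (positive minus negative) of 0.75 (SE 0.21, adjusted p = 0.155). Lmx1a, against which the negative cells were gated, gave 146, 169.6 and 78.7 on the positive arrays and 3.74, 9.75 and 1.81 on the negative arrays, all 3 of the latter under the 40th percentile. Hybridization spike-ins averaged 2293 and 2352 on positive replicates 1 and 2 against 4254 to 6560 on the other 4 arrays. The 18S rRNA probe sets split the same way, at 3713 and 3696 against 7241 to 9276. This split of the arrays is called the spike-in side. No negative array lay on its lower side, so in a fit with the side as a block the groups are compared through positive replicate 3. Signals are linear MAS5 values scaled alike on every array, and tests were made with limma on log2 signal, adjusted over all 12047 genes tested, with a threshold of 0.05 and n = 3 arrays per group.

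By the probe set that represents each gene, Sv2b was the 1 member past the threshold in the main fit. Sv2b was higher in positive cells by 6.11-fold, and the other 36 tested members missed the threshold. Of all genes tested, 1.06% passed in either direction and 0.423% as higher in positive cells. The Sv2b call was lost with the spike-in side as a block, with no filter and without a mean-variance trend. In the fit over probe sets, where 0.537% passed, a second Rab3a probe set passed too, lower in positive cells at -3.52 (adjusted p = 0.00145 by limma). Groups of 3 arrays did not overlap in 5 members, Sv2b, Syngr3, Syt13, Rab3a and Rab3c, always with the positive arrays higher, against 8.21% of all genes in that direction, 7.25% in the other and 15.5% in either. At an unadjusted p under 0.05 there were 4 members, Sv2b, Syt13, Rab3c and Synpr, all higher, against 5.68% of all genes higher, 5.08% lower and 10.8% in either direction. Of the 37 members, 27 had a log2 difference above 0, against 52.4% of all genes, and their median was 0.25, beside 0.025 over all genes tested. No tested member was dim on all arrays of a group, and 32 exceeded the filter level on all 6 arrays, as 82.3% of tested genes did. In bulk sorted cells, fewer cells of a type and less RNA per cell cannot be told apart.

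**Figure D1:**
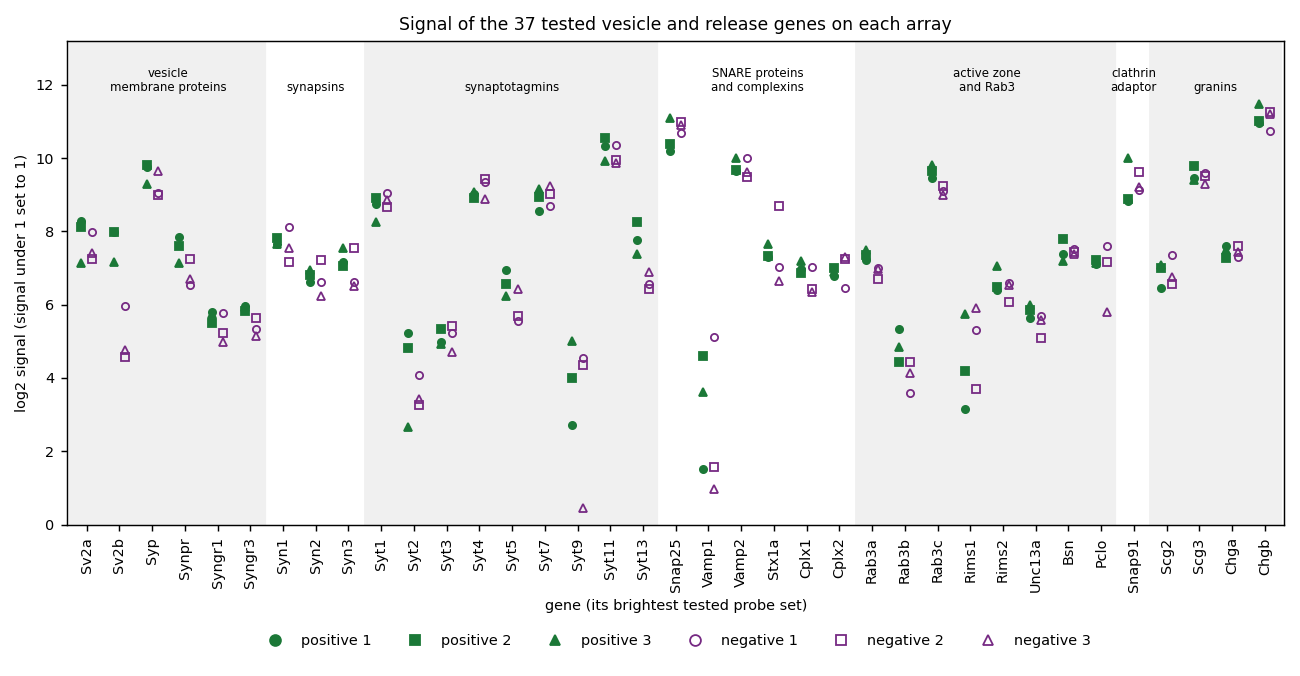
Log2 signal (y axis, signal under 1 set to 1) of each tested member (x axis, by role) on the 3 positive arrays (filled) and 3 negative arrays (open), from the probe set that represents the gene. Sv2b is the member with a clear gap between the groups; heights of different genes come from different probes and are not comparable.

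The vesicle membrane proteins held the one call. For Sv2b the signal was 251, 251 and 144 on the positive arrays and 62, 23.7 and 27.1 on the negative arrays. The lowest positive value was above the highest negative one, and positive replicate 3 was the lowest of its group. The log2 difference was 2.61 (SE 0.38, adjusted p = 0.00511), with a 95% interval of 1.78 to 3.44. A second Sv2b probe set, tested among 27738 probe sets, gave 35.3, 28 and 45.2 on the positive arrays and 10.9, 13.4 and 17.4 on the negative arrays. It was also higher on every positive array, by 1.38 (SE 0.50, unadjusted p = 0.0168, adjusted p = 0.418), and missed the threshold. The call on the first probe set held without each single array (adjusted p of 0.00176 to 0.0369), while in the fit over probe sets it was lost without positive replicate 2 (adjusted p = 0.0507). With the spike-in side as a block, which rests on positive replicate 3, it was lost at 2.08 (adjusted p = 0.228). It was also lost with no filter on dim probe sets (adjusted p = 0.0964) and without a mean-variance trend in the fit (adjusted p = 0.0788), at the same difference.

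Its relatives did not show that gap. Sv2a, the SV2 protein found on most vesicles, read 313, 277 and 139.7 on the positive arrays and 251, 153 and 169 on the negative arrays. Positive replicates 1 and 2 were its highest arrays and positive replicate 3 its lowest, and the difference was 0.30 (SE 0.31, adjusted p = 0.753). The sign turned to -0.42 (adjusted p = 0.965) with the spike-in side as a block. Sv2c stayed under the filter, with a signal of 59.8 on positive replicate 1 and 0.762 to 8.95 on the other 5 arrays. Synpr, which encodes synaptoporin, read 231, 193 and 141 on the positive arrays and 92.1, 151 and 103 on the negative arrays. Its groups overlapped through positive replicate 3 and negative replicate 2, at 0.71 (SE 0.28, unadjusted p = 0.0247, adjusted p = 0.369). Syngr3, a synaptogyrin, read 62.1, 56.6 and 60.7 on the positive arrays and 40.2, 49.5 and 35.2 on the negative arrays, narrowly apart, with a difference of 0.54 (SE 0.33, adjusted p = 0.57). Syp, which encodes synaptophysin, the classical vesicle marker, differed by 0.39 (SE 0.24, adjusted p = 0.57) and Syngr1, another synaptogyrin, by 0.35 (SE 0.36, adjusted p = 0.748). All 6 tested vesicle membrane genes had a difference above 0, 1 of them past the threshold.

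The synapsins tether vesicles to one another in the reserve pool. Their 3 genes overlapped between groups and none passed. Syn1, the brightest by its own probe set, read 201, 224 and 202 on the positive arrays and 277, 144 and 186 on the negative arrays, a difference of 0.099 (SE 0.26, adjusted p = 0.918) with an interval of -0.46 to 0.66. Syn2 differed by 0.097 (SE 0.29, adjusted p = 0.93) and Syn3 by 0.37 (SE 0.30, adjusted p = 0.68). The 4 other tested probe sets of Syn2 gave differences of 0.17 to 0.97 and missed the threshold too.

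Among the synaptotagmins, the calcium sensors and related membrane trafficking proteins, none of 9 tested genes passed. Syt13, a family member that lacks the usual calcium-binding residues, came closest. It read 216, 306 and 168 on the positive arrays and 94.2, 85.5 and 118 on the negative arrays, so that every positive array exceeded every negative one. The difference was 1.18 (SE 0.27, unadjusted p = 0.000832, adjusted p = 0.0691), or 2.27-fold. Without positive replicate 3 it passed at 1.39 (adjusted p = 0.0231). In that fit group and spike-in side coincide, so their effects cannot be told apart, and 417 genes passed against 128 in the main fit. A second Syt13 probe set overlapped between groups at 0.082 (SE 0.63, adjusted p = 0.982). With the spike-in side as a block the difference on the first was 0.77 (adjusted p = 0.796). Syt5 read 124, 95.1 and 74.7 on the positive arrays and 47, 51.3 and 85.3 on the negative arrays. Positive replicates 1 and 2 exceeded all negative arrays and positive replicate 3 did not, at 0.70 (SE 0.33, unadjusted p = 0.054, adjusted p = 0.475).

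The main fast calcium sensor, Syt1, read 428, 480.1 and 307 on the positive arrays and 525, 408 and 464 on the negative arrays. Its groups overlapped, at -0.22 (SE 0.22, adjusted p = 0.748). Another Syt1 probe set read 75.6, 66 and 131 on the positive arrays and 165, 153 and 161 on the negative arrays, lower on every positive array, at -0.88 (SE 0.29, unadjusted p = 0.0104, adjusted p = 0.351). Syt4, Syt7 and Syt11, which act in dense-core release, slower calcium-dependent release and membrane trafficking, differed by -0.22 (SE 0.21, adjusted p = 0.724), -0.11 (SE 0.23, adjusted p = 0.892) and 0.21 (SE 0.23, adjusted p = 0.764). For Syt7 the probe sets went apart, since another one read 213, 127 and 92.9 on the positive arrays and 101, 43.2 and 51.7 on the negative arrays, a difference of 1.16 (SE 0.38, unadjusted p = 0.0101, adjusted p = 0.35). The 4 other tested Syt11 probe sets ranged over 0.050 to 0.36. Syt2, Syt3 and Syt9 had weak signals, at most 42.7 on any array by their representing probe sets, with differences of 0.65 (SE 0.73), -0.027 (SE 0.40) and 0.79 (SE 1.06). The 4 probe sets of Syt6 read 0.0804 to 13.7 over the 6 arrays and stayed under the filter.

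**Figure D2:**
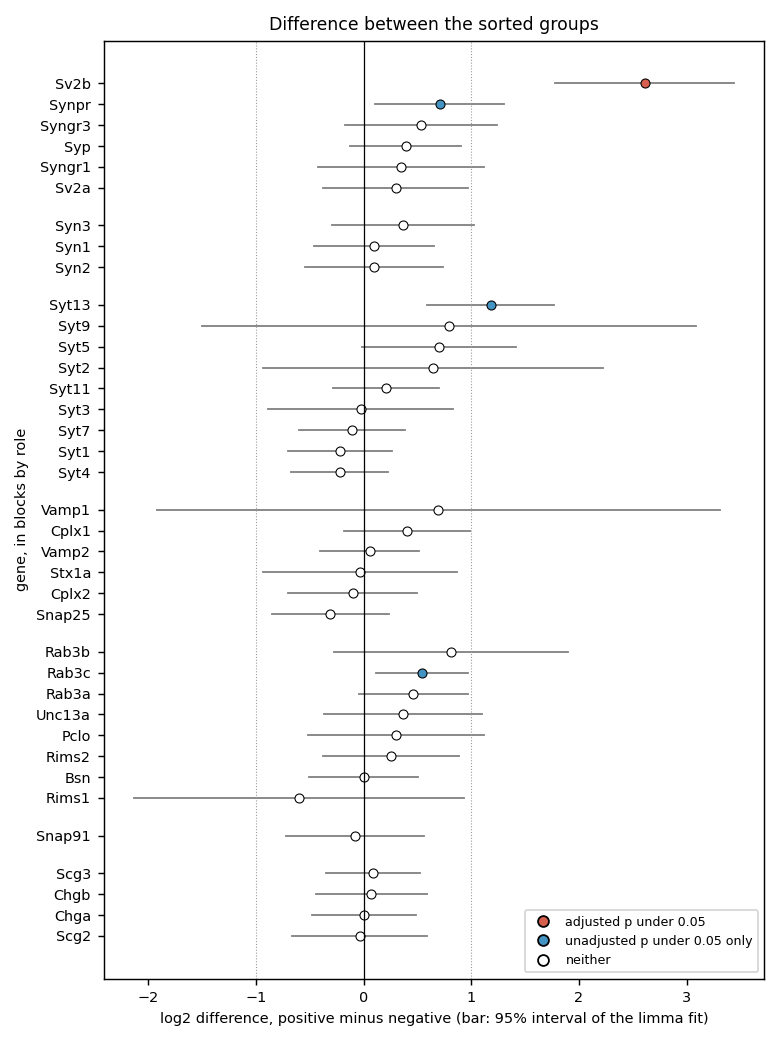
Log2 difference of each tested member (x axis, positive minus negative) with its 95% interval from the limma fit (bars), in blocks by role; n = 3 arrays per group, and dotted lines mark -1 and 1. Sv2b is the one filled as past the adjusted threshold, at 2.61, and the 4 granins all sit near 0.

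The SNARE proteins that drive fusion, and the complexins that clamp it, held no call among 6 tested genes, and all 6 overlapped between groups. Snap25, a SNARE of the plasma membrane and the one with the brightest probe set of its role, read 1161, 1340.1 and 2181 on the positive arrays and 1649.7, 2031 and 1917 on the negative arrays. Positive replicates 1 and 2 lay under all other arrays and positive replicate 3 above them. The difference was -0.31 (SE 0.25, adjusted p = 0.679), and its second probe set gave -0.35 (SE 0.26, adjusted p = 0.705). The first became 0.23 (adjusted p = 0.979) with the spike-in side as a block. Vamp2, the vesicle SNARE, differed by 0.058 (SE 0.21, adjusted p = 0.946), and its interval of -0.40 to 0.52 lay within -1 to 1. Cplx1 and Cplx2 differed by 0.40 (SE 0.27, adjusted p = 0.61) and -0.10 (SE 0.28, adjusted p = 0.92). Vamp1 was weak, at 1.97 to 34.4, and its interval of -1.92 to 3.31 bounds little.

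Stx1a, syntaxin 1A, gave different values by probe set. The one that represents the gene read 157, 161 and 202 on the positive arrays and 131, 417 and 101 on the negative arrays, where negative replicate 2 stood far above the rest, and the difference was -0.036 (SE 0.42, adjusted p = 0.986). The other probe set read 55.3, 48.8 and 45.4 on the positive arrays and 25, 23.2 and 17.2 on the negative arrays, higher on every positive array, at 1.21 (SE 0.40, unadjusted p = 0.0106, adjusted p = 0.355). The first has a name ending in _x_at, which Affymetrix gives to probe sets that can bind other transcripts. In a fit that left out every name with an added _x, _s or _a before its _at, Stx1a was 1.21 (adjusted p = 0.255) at the gene level.

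The active zone and Rab3 genes held no call among 8 by the probe set that represents each gene. Rab3 proteins are small GTPases that bring vesicles to the release site. Rab3c read 704, 804 and 905 on the positive arrays and 548, 600.5 and 505 on the negative arrays, apart between groups, at 0.54 (SE 0.20, unadjusted p = 0.0167, adjusted p = 0.327). Its 4 other tested probe sets did not share that gap, at -0.0042, -0.15, -0.30 and -0.57, and their mean with the first was -0.098 (adjusted p = 0.894). Rab3a, the most abundant neuronal form, read 148, 164 and 181 on the positive arrays and 128, 103 and 127 on the negative arrays on its representing probe set. The positive arrays were narrowly higher, at 0.46 (SE 0.23, unadjusted p = 0.0694, adjusted p = 0.496). Rab3b differed by 0.81 (SE 0.50, adjusted p = 0.58) at weak signals of 12 to 40.6.

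A second probe set assigned to Rab3a gave the opposite picture and the largest difference of any member probe set. It read 73.4, 46.4 and 15.7 on the positive arrays and 406, 468 and 424 on the negative arrays. The negative arrays agreed closely and every positive array was far lower. In the fit over 27738 probe sets, where 0.537% passed, the difference was -3.52 (SE 0.44, adjusted p = 0.00145), 11.5-fold lower in positive cells. It passed without each single array (adjusted p of 0.000226 to 0.0204) and with the spike-in side as a block at -4.78 (adjusted p = 0.000181). It missed with no filter (adjusted p = 0.13) and without a trend (adjusted p = 0.127). Its name also ends in _x_at, and what else its probes bind was not tested. The call for Rab3a as a gene depends on which of the pair is used. On log2 of the signal plus 32, and without positive replicate 1, 2 or 3, the second became the brighter and Rab3a was called lower, at -2.66, -4.00, -3.67 and -2.89. With its probe sets averaged Rab3a was also called lower, at -1.53. On the higher spike-in side alone, where positive replicate 3 is the only positive array, it was -4.78.

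**Figure D3:**
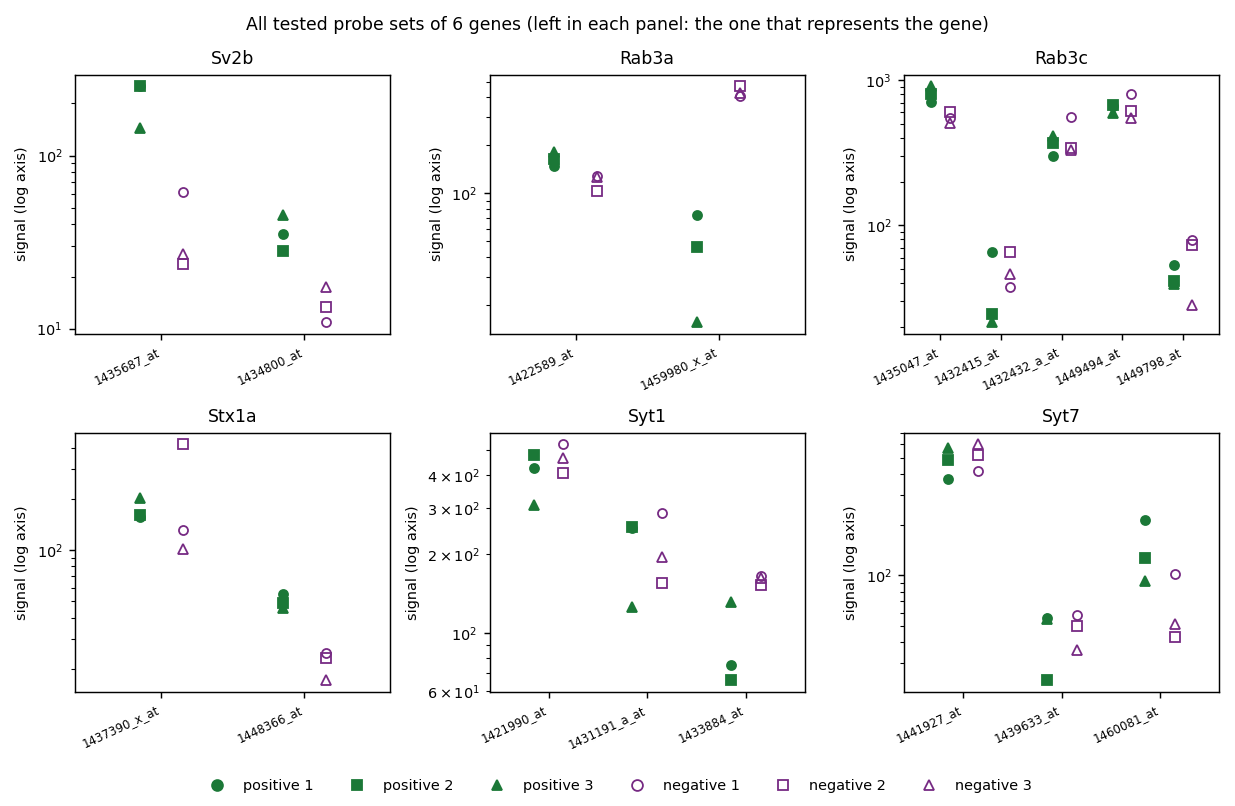
Signal (y axis, log) of every tested probe set (x axis) of 6 members on the 3 positive arrays (filled) and 3 negative arrays (open). Both Sv2b probe sets are higher in positive cells, while the probe sets of Rab3a go opposite ways and those of Rab3c, Stx1a, Syt1 and Syt7 differ among themselves.

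None of the scaffolds and priming factors passed. Bsn, which encodes Bassoon, read 166, 221 and 146 on the positive arrays and 184, 174 and 166 on the negative arrays, a difference of 0.0019 (SE 0.23, adjusted p = 0.999) with an interval of -0.50 to 0.51. Pclo, for Piccolo, differed by 0.30 (SE 0.38, adjusted p = 0.795), with negative replicate 3 at 56 under the other 5 arrays at 137 or more. Unc13a, for the priming factor Munc13-1, differed by 0.37 (SE 0.34, adjusted p = 0.717) and Rims2, for a RIM scaffold, by 0.25 (SE 0.29, adjusted p = 0.776). Rims1 was weak and scattered, at -0.60 (SE 0.71, adjusted p = 0.783); another Rims1 probe set read 19.7, 17.5 and 21.9 on the positive arrays and 44.1, 27.2 and 27 on the negative arrays, lower on all positive arrays, at -0.70 (SE 0.47, adjusted p = 0.673). Snap91 encodes AP180, the clathrin adaptor that helps to retrieve vesicle membrane. It read 455, 471 and 1026 on the positive arrays and 555, 789.8 and 595 on the negative arrays, with positive replicates 1 and 2 the lowest arrays and replicate 3 the highest, and differed by -0.081 (SE 0.30, adjusted p = 0.945).

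The granins, which pack dense-core vesicles, had differences close to 0 in the main fit, between -0.037 and 0.086 in 4 of 4 tested genes. Chgb, chromogranin B, read 1974, 2064 and 2841 on the positive arrays and 1699, 2463 and 2376 on the negative arrays, and differed by 0.073 (SE 0.24, adjusted p = 0.936). The Chgb difference was 0.45 with quantile normalization (unadjusted p = 0.00715, adjusted p = 0.233) and 0.041 with each array centred on its median. With the spike-in side as a block, which rests on positive replicate 3, it was 0.40 (adjusted p = 0.89). Chga, chromogranin A, read 195, 154 and 178 on the positive arrays and 158, 194 and 173 on the negative arrays, and differed by 0.0058 (SE 0.22, adjusted p = 0.995). In both genes the groups overlapped widely. Scg2 and Scg3, for secretogranins, differed by -0.037 (SE 0.29, adjusted p = 0.979) and 0.086 (SE 0.20, adjusted p = 0.905). The 95% intervals of all 4 lay within -1 to 1 on the log2 scale, as did those of 23 of the 37 members and 47.6% of all genes tested. Scg2, Syn1 and Unc13a, whose promoter stretches hold letters of RE1, were among the 36 of 37 tested members without a call. The part of RE1 in these levels was not tested.

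Several members set positive replicates 1 and 2 apart from the other arrays. Snap25 and Snap91 were lower on positive replicates 1 and 2 than on the other 4 arrays, 5.41% of tested members against 13.8% of all genes tested. Sv2a, Sv2b, Syp, Synpr, Syt2, Syt5 and Syt13 were higher on those 2 arrays than on the other 4, 18.9% against 13.9%. Of these 7, Sv2b and Syt13 also had positive replicate 3 above every negative array. The part of the spike-in side in the differences was not tested beyond the fit with the side as a block. In that fit no member passed by limma, and 4 of 37 had an unadjusted p under 0.05, against 773 of 12047 genes.

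Over all probe sets, 74 of the members' 91 were tested. Sv2b's first and Rab3a's second were the 2 that passed, 1 higher and 1 lower, against 0.187% and 0.35% of all tested probe sets. At an unadjusted p under 0.05 there were 9, against 9.43% of all tested probe sets. Of 37 tested probe sets that do not represent their gene, in 20 genes, 26 had the sign of the representing one and 11 the opposite sign. Groups did not overlap in 8 of the 74 with positive arrays higher and in 3 with them lower, against 7.96% and 5.98% of all probe sets. The 3 lower ones belonged to Rab3a, Syt1 and Rims1.

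Other genes of vesicle release, from a list of 139, were read in the same fit. Of these 127 were on the array and 111 were tested, of which 3 were higher and 1 lower in positive cells, against 0.423% and 0.639% of all genes. The higher ones were 2 of 3 tested vesicular transmitter transporters and a calcium channel subunit. Slc18a2, the vesicular monoamine transporter that loads dopamine, read 385, 337 and 527 on the positive arrays and 166, 227 and 164 on the negative arrays, a difference of 1.15 (SE 0.24, adjusted p = 0.0377). Slc17a6, which loads glutamate, read 799, 897 and 512 on the positive arrays and 385, 313 and 301 on the negative arrays, at 1.11 (SE 0.24, adjusted p = 0.0475). In both, every positive array exceeded every negative one. Cacna2d1, an auxiliary subunit of presynaptic calcium channels, read 448, 667 and 291 on the positive arrays and 213, 159 and 152 on the negative arrays, at 1.36 (SE 0.29, adjusted p = 0.0443). Stxbp5l, a tomosyn that binds syntaxin, was the lower one and read 38.5, 50.3 and 62.3 on the positive arrays and 127, 192 and 117 on the negative arrays, at -1.52 (SE 0.31, adjusted p = 0.0344). A pair of these calls rest on the choice of probe set. With the tested probe sets of a gene averaged, Stxbp5l was -0.25 (adjusted p = 0.819). With names carrying an added _x, _s or _a left out, Cacna2d1 was 0.53 (adjusted p = 0.466).

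None of these 4 calls held with the spike-in side as a block, at adjusted p of 0.104 for Slc18a2, 0.667 for Slc17a6, 0.746 for Cacna2d1 and 0.55 for Stxbp5l. With 1 array left out, Slc18a2 passed without negative replicate 2 and had an adjusted p of 0.059 to 0.133 otherwise. Slc17a6, Cacna2d1 and Stxbp5l passed without positive replicate 3, and had 0.0844 to 0.298, 0.0668 to 0.249 and 0.0624 to 0.18 otherwise. Without positive replicate 3, group and spike-in side coincide and cannot be told apart. Of the remaining groups, none of 25 docking and active zone genes, 12 other synaptotagmins and vesicle proteins, 21 endocytosis genes, 14 proton pump subunits and 7 granule cargo or processing genes passed, and of 22 further SNARE assembly genes Stxbp5l alone did. The median difference over the 111 was 0.07.

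Markers of the cells that each gate could hold were read beside these genes. The 13 general neuronal markers held no call by limma, with 5 at an unadjusted p under 0.05, against 10.8% of all genes. Their median difference was -0.13, and summed signals were 19158 to 27602 in the positive group and 23267 to 27168 in the negative group. Those ranges overlap. The 5 went both ways and their groups did not overlap, against 15.5% of all genes without overlap in either direction. Gap43 (0.65), Mapt (0.48) and Nefm (0.76) read higher on every positive array, and Map2 (-0.73) and Ina (-0.43) lower, at adjusted p of 0.125 to 0.463. Of 10 neural progenitor markers 1, Fabp7, was lower, and their summed signal was 5200.2 to 8041 in the positive group against 8761 to 10489. Without Fabp7 the sums were 3956 to 5696 against 5193 to 6717, which overlap. Of the 10, 7 had a difference below 0. By limma 3 were lower at an unadjusted p under 0.05 and 0 higher, against 5.08% and 5.68% of all genes. Besides Fabp7 these were Slc1a3 (-0.88, lower on every positive array) and Vim (-0.57, groups overlapping). Differences were above 0 in Top2a (0.30, higher on every positive array), Notch1 (0.30) and Hes1 (0.89), none past the threshold. Of 8 tested dopaminergic markers 6 were higher, including Th, while Pitx3 was under the filter level on all arrays. The 6 include Lmx1a, against which the negative cells were gated, and Slc18a2, already counted among the other release genes. Of the 6, Lmx1a and Slc6a3 passed the filter only through the positive arrays. Of 7 GABAergic markers 5 were lower. Their summed signals were 4080.4 to 5535 against 1506 to 1866 and 2157 to 2343 against 5224 to 5509.

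Blood and macrophage markers were brighter on the negative arrays. All 5 tested erythroid and 4 of 5 tested microglia and macrophage markers were lower in positive cells, at summed signals of 318 to 633 against 7512 to 14931 and 22 to 45.4 against 376 to 781. Of the tested ones, Hba-x, Hbb-bh1, Aif1, Csf1r, Fcer1g and Tyrobp passed the filter only through the negative arrays. Their direction was therefore largely set by the filter. On the positive arrays Hba-x, Hbb-bh1, Hba-a1 and Epor, and 8 of 9 macrophage markers (all but C1qb), were under the filter level. No endothelial marker was tested, 5 of 6 being under the filter level on all arrays, and none of 3 tested mesenchymal markers passed. The part of these cell types in the differences of the vesicle genes was not tested.

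**Figure D4:**
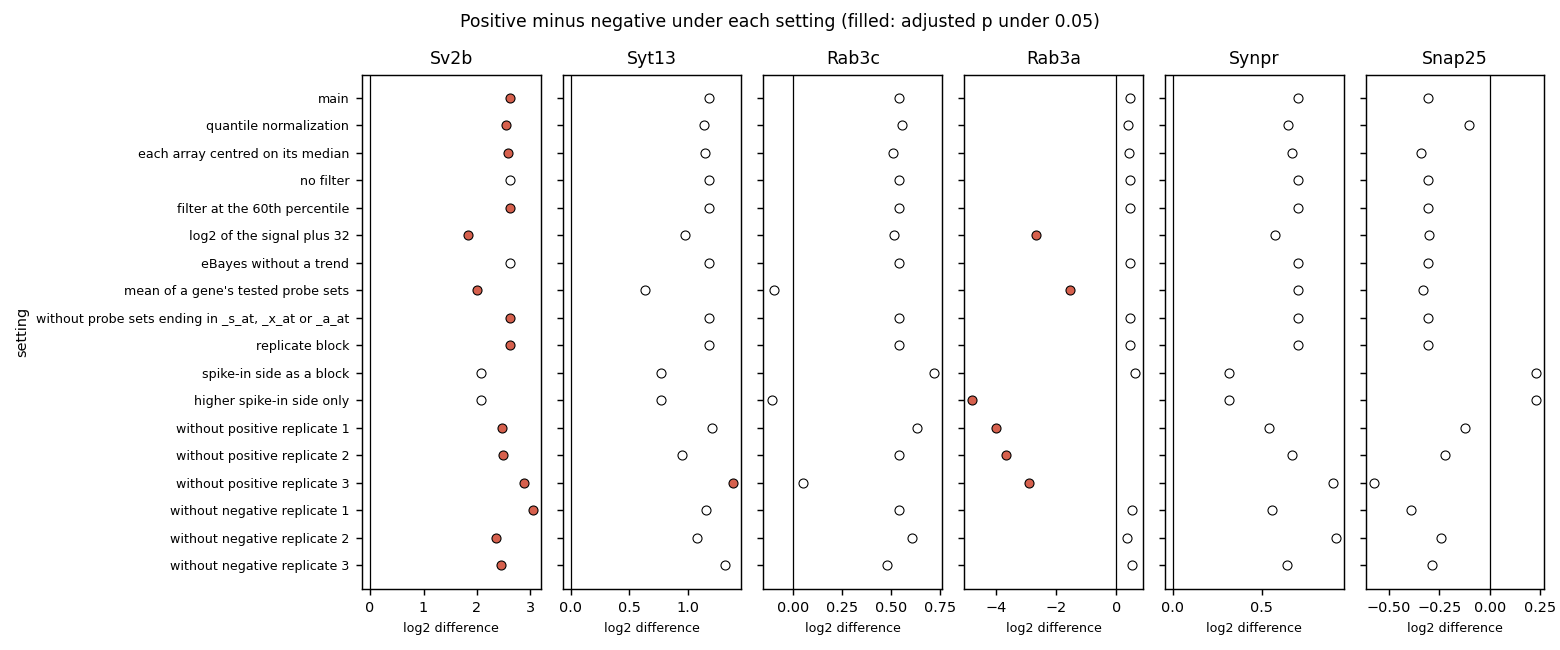
Log2 difference (x axis, positive minus negative) of 6 members under the main fit and each alternative (y axis), filled where the adjusted p was under 0.05. Sv2b stays at 1.84 or more under every setting drawn, Rab3a jumps below 0 where its second probe set represents or enters the gene, and Snap25 changes sign in the fits that rest on positive replicate 3.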

How the data were processed

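Biotin-labelled cRNA of sorted cells was hybridized to Affymetrix arrays, 3 per group, per the labels' protocols. The authors deposited a linear intensity for each probe set. Per the submitters' processing notes it came from MAS5 under R 2.14.2, and limma is named there with no role. Each deposited intensity column is scaled to a trimmed mean of 100, which hides differences in total RNA. Slide, scan time and detection calls were not used here.

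Members and lists were chosen with earlier results of these data known. Values below 1 were raised to 1 before log2. The platform annotation gave 34957 probe sets 1 symbol, 920 several and 9160 none. Where a gene had several tested probe sets, the brightest on average stood for it. limma 3.58.1 in R 4.3.3 (lmFit, eBayes with trend, two-sided) was run on 12047 genes, and again on 27738 probe sets, with Benjamini-Hochberg adjustment. It was also run on simulated arrays with independent noise and no spike-in split, which cannot show how it behaves under that split. Every member is named. Values per array are given for members with an unadjusted p under 0.05 or groups that do not overlap, for the brightest of other roles, and for further members and probe sets chosen after their values were seen. Replicate numbers were not taken to pair the arrays. The median signal nevertheless fell from replicate 1 to replicate 3 in both groups, from 24.8 to 19.3 in the positive and from 25.5 to 18.1 in the negative. Alternatives were other normalizations, filters, scales, probe set choices, blocks and arrays left out. Figures were drawn with matplotlib 3.10.9. The number of arrays limits the precision.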

Additional observations from a re-analysis of the deposited data

How the results depend on the processing

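Leaving out 1 array at a time gave 57 to 417 genes called, 1 to 3 members, 1 to 4 member probe sets and 0 to 7 other release genes. The highest, 417, came without positive replicate 3, which leaves the positive group on the lower spike-in side. The main counts were 128, 1, 2 and 4. With no filter 19 of 18201 genes passed, and no member or other release gene did by limma. At an unadjusted p under 0.05 there were 5 of 39 members and 15 of 127 other release genes, against 1509 of all 18201. Without a trend 42 of 12047 genes passed and again 0 of either. There 5 of 37 members and 13 of 111 other release genes had an unadjusted p under 0.05, against 1102 of all 12047. With the spike-in side as a block 34 genes, 0 members, 1 member probe set and 0 other release genes passed, and 40, 1, 1 and 0 on its higher side alone. No member probe set passed with no filter or no trend, where 10 of 91 and 8 of 74 had an unadjusted p under 0.05. No share over all probe sets was taken in those fits. Members called were 2, Rab3a and Sv2b, on log2 of the signal plus 32 and with probe sets of a gene averaged. Of all 12047 genes, 153 and 126 passed there. Other release genes called were 2 of 111 with quantile normalization, 1 with centring on the median and 2 with the mean of probe sets. In these fits 124, 105 and 126 of all 12047 genes passed. The median over members stayed between 0.06 and 0.33 in all settings.

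The replicate number as a block gave 127 genes, 1 member, 2 member probe sets and 3 other release genes. Same-numbered arrays deviated together at correlations of 0.16, -0.08 and 0.06, so the numbers were not taken to pair the arrays. With quantile normalization, the sign turned in Bsn (-0.071) and Chga (-0.054). With centring each array on its median, the sign turned in Bsn (-0.031) and Chga (-0.027). With log2 of the signal plus 32, the sign turned in Rab3a (-2.66). With probe sets of a gene averaged, the sign turned in Rab3a (-1.53), Rab3c (-0.098), Stx1a (0.59) and Syt7 (0.29). With only probe sets without a suffix letter, the sign turned in Cplx2 (0.43) and Stx1a (1.21). With the spike-in side as a block, the sign turned in Bsn (-0.26), Rims1 (0.79), Scg2 (0.20), Scg3 (-0.059), Snap25 (0.23), Snap91 (0.68), Stx1a (0.19), Sv2a (-0.42), Syt11 (-0.13), Syt2 (-0.93) and Syt7 (0.18). With only the 4 arrays of its higher side, the sign turned in Bsn (-0.26), Rab3a (-4.78), Rab3c (-0.11), Rims1 (0.79), Scg2 (0.20), Scg3 (-0.059), Snap25 (0.23), Snap91 (0.68), Stx1a (0.19), Sv2a (-0.42), Syt11 (-0.13) and Syt7 (0.18). For Rab3a and Rab3c another probe set represented the gene on those 4 arrays. The first Rab3c probe set kept its sign with the side as a block, at 0.72. Leaving out 1 array turned the sign at least once in Bsn (-0.17 to 0.13), Chga (-0.072 to 0.098), Chgb (-0.097 to 0.17), Cplx2 (-0.37 to 0.043), Pclo (-0.22 to 0.67), Rab3a (-4.00 to 0.52), Scg2 (-0.20 to 0.19), Scg3 (-0.036 to 0.16), Snap91 (-0.46 to 0.12), Stx1a (-0.44 to 0.58), Syn1 (-0.12 to 0.35), Syn2 (-0.14 to 0.36), Syt3 (-0.23 to 0.13), Syt7 (-0.25 to 0.060), Syt9 (-0.54 to 1.51), Vamp1 (-0.092 to 1.56) and Vamp2 (-0.055 to 0.21). Of these, Rab3a was called under the turned sign. Signal over background limits Syt2, Syt9, Vamp1, Rab3b and Rims1, whose values fell under the filter level on some arrays.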

Other observations

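Of the 111 tested other release genes, groups did not overlap in 14 with positive arrays higher and 4 with them lower, against 8.21% and 7.25% of all genes. At an unadjusted p under 0.05 by limma 14 were higher and 4 lower, against 5.68% and 5.08% of all genes. Examples among those that missed the adjusted threshold are the 3 with groups that did not overlap and an unadjusted p under 0.01. Their number is not read as a result, since no share over all genes was taken at that cut. Rph3a, for the Rab3 effector rabphilin, read 78.6, 55.8 and 65.3 on the positive arrays and 36.8, 24 and 17.6 on the negative arrays, a difference of 1.40 (SE 0.39, unadjusted p = 0.00357, adjusted p = 0.167). Lin7a, a scaffold of the presynaptic complex with Cask, read 365, 362 and 306 on the positive arrays and 215, 199.7 and 232 on the negative arrays, at 0.67 (SE 0.20, unadjusted p = 0.00575, adjusted p = 0.216). Pam, which amidates peptides in dense-core vesicles, read 335, 443 and 280.3 on the positive arrays and 202, 199 and 241 on the negative arrays, at 0.70 (SE 0.23, unadjusted p = 0.00911, adjusted p = 0.254). All 3 were higher on every positive array. They were singled out after their values were seen.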
